A study of Mus musculus with 6 samples.

Results

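This account covers 40 genes of the dermal extracellular matrix and of the mesenchymal cells that usually make it, out of 47643 genes counted in mast cells sorted from mouse skin. They were taken by symbol from a written list whose rule uses no expression value, although the list was drawn up with earlier results of these data known. They comprise 14 collagen chains, 26 other matrix, enzyme, inhibitor, receptor, transcription factor and contractile genes. All 40 had a gene identifier in the count table. The question the set puts to these data is which matrix transcripts behaved like traces of other skin cells, and which kept their own level, when each library was shown by itself.

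RNA was sequenced from 6 libraries of skin mast cells, granulated immune cells known for histamine release. All came from Cdh5CreERT2 mice, in which a tamoxifen-inducible Cre recombinase is driven by the promoter of an endothelial cadherin, given 4OHT (4-hydroxytamoxifen) at embryonic day 7.5. The 3 embryonic libraries (PRIM) held cells of E16.5 skin sorted as CD45+ F4/80- CD64- ckit+ ST2+, and the 3 adult libraries (DEF) held cells of adult skin sorted as CD45+ F4/80- CD64- ckit+ Fcer1+. An extra Dispase step took the epidermis off adult skin only. Age, sort gate, lineage of the cells and this step change together between the groups and cannot be told apart. Use of the Cre label in the sort is not stated, and neither is whether each replicate was its own animal. The p-values therefore describe scatter among these libraries, part of which may be technical.

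Collagens form triple helices. Types I, III and V make the banded fibrils of the dermis, and type IV makes the sheet of basement membranes. Type VII anchors that sheet to the dermis and type XVII holds keratinocytes to it. Small proteoglycans such as decorin coat the fibrils, fibrillins and elastin make elastic fibres, lysyl oxidases cross-link both, and matrix metalloproteinases and their tissue inhibitors (TIMPs) govern turnover. In skin most of these genes are made by fibroblasts, with keratinocytes, endothelial cells and pericytes contributing to basement membranes.

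Library totals ran from 34122162 to 49813523 counts, and the members took 0.114, 0.124 and 0.134% of them in embryonic replicates 1, 2 and 3 and 0.142, 0.136 and 0.0834% in the adult ones. Values below are CPM (counts scaled to a common library total) on TMM-scaled library sizes unless said otherwise, always in the order of replicates 1, 2 and 3. The 12 mast cell markers summed to 132174, 127038 and 138953 CPM in embryonic and to 68166, 64839 and 69034 CPM in adult libraries, with none at 0 in any of the 6. The 18 fibroblast markers outside the set summed to 63.2, 60.8 and 83.7 CPM against 113, 95.4 and 25.7 CPM, with 4 of the 17 tested called in each direction and 1 at 0 in adult replicate 3 alone. The most abundant of them did not go 1 way between the groups. Fmod was at 0.515, 2.66 and 0.438 against 38.1, 22.3 and 4.76 CPM. Fstl1 was at 11.2, 13.2 and 18.1 against 6.69, 6.46 and 1.79 CPM, and Pcolce at 8.61, 8.58 and 9.3 against 10.1, 10.4 and 6.23 CPM. Skeletal muscle markers summed to 2.08, 3.26 and 2.02 against 21.8, 5.49 and 1.5 CPM, and Schwann cell and melanocyte markers to 68.3, 85.4 and 86.8 against 83, 103 and 58.5 CPM. In such bulk libraries, fewer cells of a type and less RNA per cell cannot be told apart.

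In the adult group, replicate 3 stood apart from the other libraries in this gene set. It was the lowest adult library for 35 of the 40 members, against 32.6% of the 15111 genes tested. The mean of adult replicates 1 and 2 was a median of 3.73 times the value of adult replicate 3 over the members with counts there, and at least 3 times it for 26 of them. For 29 members it was the lowest adult library with the highest at least 3 times above, against 6.43% of all tested genes. The same median was 0.99 over all tested genes, of which 4.61% reached 3, and 0.958 over the mast cell markers, which ranged from 0.76 to 1.07. For the fibroblast markers outside the set it was 3.03, for skeletal muscle markers 6.72 and for Schwann cell and melanocyte markers 4.51. Endothelial, pericyte and smooth muscle, macrophage and keratinocyte markers had medians of 2.42, 1.75, 1.73 and 1.38. The threshold of 3 was chosen after these values were seen. Whether the fibroblast markers have a part in the member values was not tested.

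**Figure D1:**
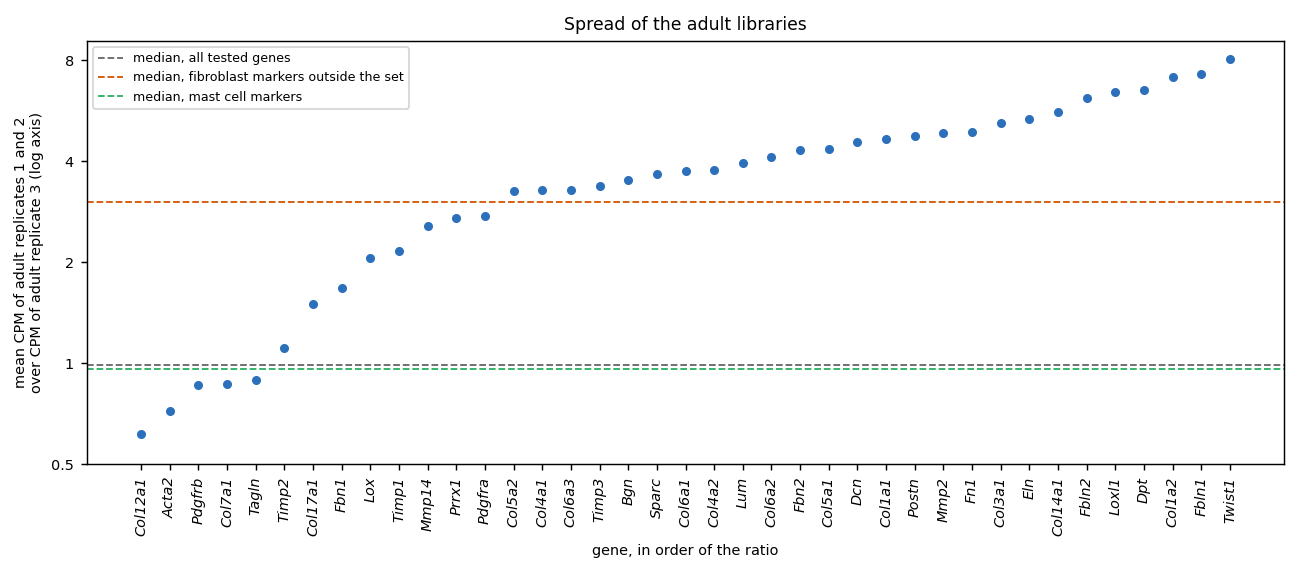
Mean CPM of adult replicates 1 and 2 over the CPM of adult replicate 3 (log axis) for the 39 members with counts in adult replicate 3, each point a gene, with dashed lines at the medians of comparison lists. Most members lie between 2 and 8.04, while Col12a1 (0.615), Acta2 (0.718), Pdgfrb (0.859), Col7a1 (0.866), Tagln (0.892) and Timp2 (1.11) lie near or below 1.

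The members under a ratio of 2 were 8: Col12a1 (0.615), Acta2 (0.718), Pdgfrb (0.859), Col7a1 (0.866), Tagln (0.892), Timp2 (1.11), Col17a1 (1.5) and Fbn1 (1.68). Adult replicate 3 was still the lowest adult library for Timp2, Col17a1 and Fbn1, and was not the lowest for the other 5. Col7a1 was uneven all the same, at 3.68, 1.01 and 2.71 CPM in the adult libraries. Every fibrillar collagen, small proteoglycan and matrix glycoprotein of the set was at 3.25 or more. For the members the embryonic libraries were closer together, with a median ratio of highest to lowest library of 1.58 against 4.14 in the adult group. Over all tested genes this ratio was 1.32 in the embryonic and 1.29 in the adult group. Embryonic replicate 3 was the highest of its group for 25 members, against 35.9% of all tested genes.

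**Figure D2:**
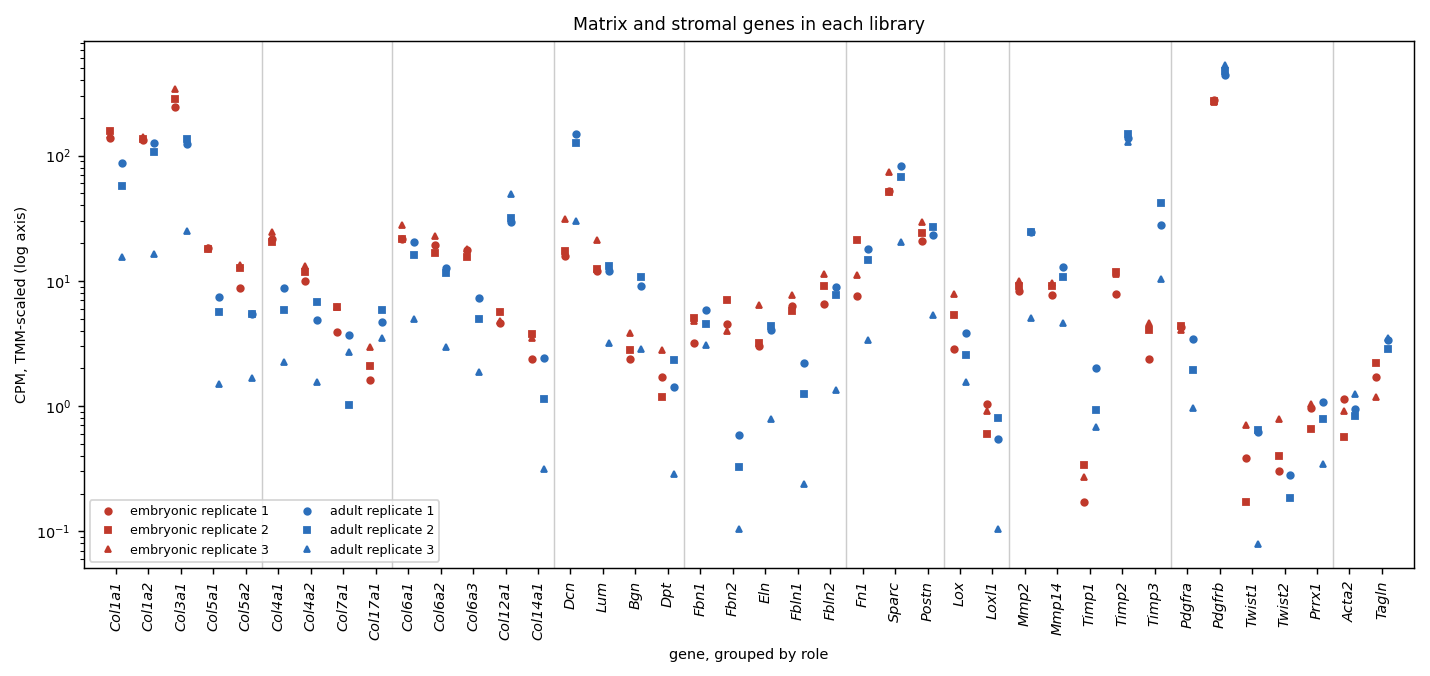
CPM of the 40 members in each library (log axis), grouped by role, embryonic and adult libraries in separate colours and replicates by symbol. Adult replicate 3 lies below the other adult libraries for 35 members, and Twist2, at 0 counts there, has no point for it.

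All 40 members passed the expression filter. Of them, 34 would have passed on either group alone; Fbn2, Fbln1, Loxl1 and Twist2 passed only through the embryonic libraries, Timp1 only through the adult ones, and Twist1 on neither group alone. In edgeR's quasi-likelihood test with Benjamini-Hochberg adjustment over all tested genes, 8 members were higher in embryonic cells, where 31.2% of the 15111 genes tested were called, and 9 were higher in adult cells, where 31.7% were. In this test both shares of the set were below those of all genes, and 23 members were not called. Groups did not overlap for 15 members with embryonic libraries above (34.5% of all genes) and for 7 with adult libraries above (35.5%). The median log2 fold change, embryonic minus adult, was 0.54 over the members and -0.02 over all tested genes.

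Leaving out adult replicate 3 moved that median to 0.07 and gave 10 embryonic and 9 adult calls among the members, where 28.4% and 29.0% of 15808 tested genes were called. The 2 analyses shared 15 calls. Col1a1, Col3a1, Col6a2 and Mmp2 were called only without that library, Col7a1 and Tagln only with it, and the fitted sign of 5 uncalled members (Eln, Fn1, Sparc, Postn and Prrx1) turned. Over the 6 fits that each left out 1 library, 6 of the embryonic calls (Col5a1, Col5a2, Col4a1, Col6a3, Fbn2 and Fbln1) and 5 of the adult calls (Col12a1, Timp1, Timp2, Timp3 and Pdgfrb) held in every fit. Among these calls, Fbn2, Fbln1 and Timp1 had passed the expression filter only through the group where they were higher, which favoured that direction.

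**Figure D3:**
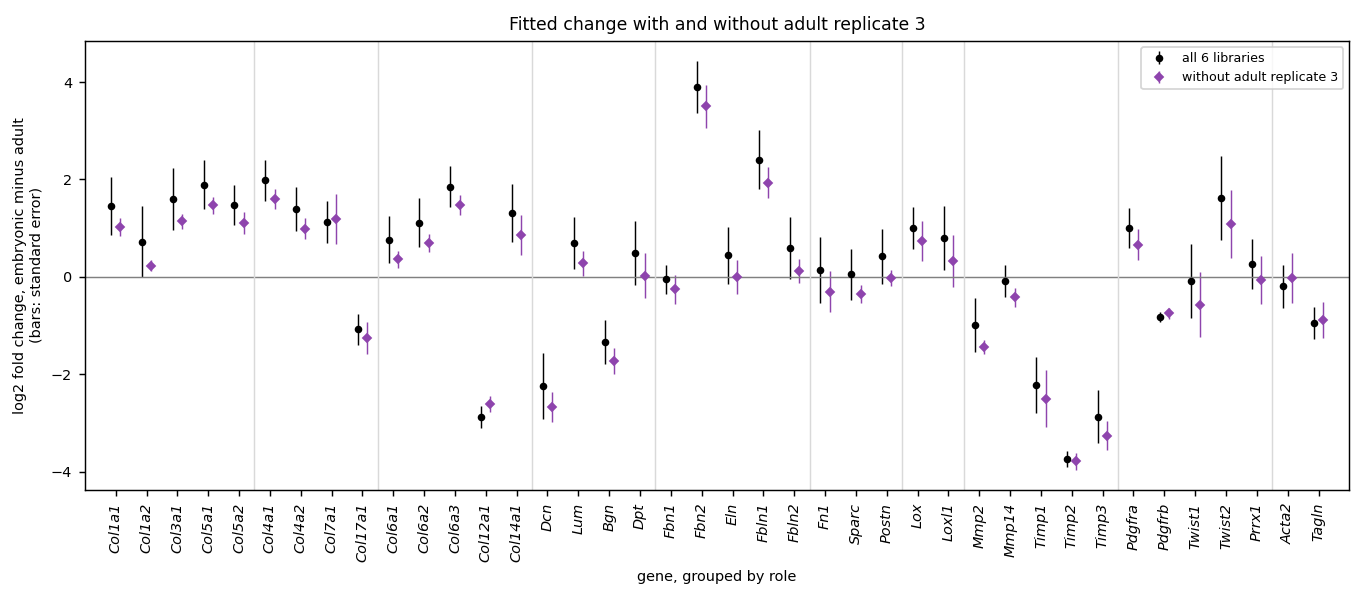
Log2 fold change (embryonic minus adult) of each member with its standard error, with all 6 libraries and without adult replicate 3. Timp2 (-3.74 and -3.79) and Pdgfrb (-0.82 and -0.75) barely moved between the fits, while Col1a1 went from 1.45 to 1.02 and its standard error from 0.6 to 0.18.

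Transcripts of the fibrillar collagens summed to 546, 609 and 658 CPM in the embryonic libraries and to 353, 312 and 60.2 CPM in the adult ones. Of the 5 members, Col5a1 and Col5a2 were called higher in embryonic cells and 3 were not called, although all 5 had every embryonic library above every adult one. Col1a1 and Col1a2, the chains of type I collagen, illustrate the spread. Col1a1 (chr11:94936224-94953042, GRCm38) stood at 139, 158 and 145 CPM in embryonic and 87.7, 57.3 and 15.6 CPM in adult libraries. The embryonic level was 2.74-fold higher (log2 1.45 ± 0.6, SE), which did not pass the test (adjusted p = 0.084). Without adult replicate 3 the log2 fold change was 1.02 ± 0.18 with an adjusted p of 0.00081, and without adult replicate 1 it was 2.0 with an adjusted p of 0.031. Col1a2 was at 134, 136 and 142 against 127, 107 and 16.4 CPM, so that adult replicates 1 and 2 came close to the embryonic level (1.64-fold, adjusted p = 0.44).

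Col3a1, the single chain of type III collagen, stood at 247, 284 and 340 CPM in embryonic and 125, 137 and 25.2 CPM in adult libraries. The fitted difference was 3.03-fold (log2 1.60 ± 0.64, adjusted p = 0.076), and without adult replicate 3 it was 2.21-fold with an adjusted p of 0.00011. Col5a1, a chain of the type V collagen that helps to start fibrils, was even among embryonic libraries at 18.3, 18 and 18.2 CPM and spread among adult ones at 7.4, 5.67 and 1.5 CPM. This 3.72-fold difference passed the test (adjusted p = 0.015). Its partner Col5a2 was at 8.74, 12.7 and 13.4 against 5.39, 5.4 and 1.66 CPM (2.79-fold, adjusted p = 0.013).

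The start regions of Col1a2 and Col3a1 are shown because both genes were lowest in adult replicate 3 of the adult libraries while their promoters are unlike in composition, with 61.0% and 37.7% G and C. Each is the RefSeq window from 250 bases before to 50 bases after the start on GRCm38.p6, 5′ to 3′ on the gene's strand, at chr6:4505368-4505667 (plus) and chr1:45311288-45311587 (plus). Capitals mark 3 motifs on either strand: the GC box, spelled GGGCGG, the box spelled CCAAT that binds nuclear factor Y, and the TATA box, for which the letters TATAAA were searched.
Col1a2: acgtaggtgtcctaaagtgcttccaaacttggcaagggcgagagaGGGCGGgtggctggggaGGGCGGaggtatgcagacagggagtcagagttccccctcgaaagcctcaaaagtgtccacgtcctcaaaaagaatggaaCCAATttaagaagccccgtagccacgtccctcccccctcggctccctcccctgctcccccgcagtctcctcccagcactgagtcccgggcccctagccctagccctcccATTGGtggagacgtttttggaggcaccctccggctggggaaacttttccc
Col3a1: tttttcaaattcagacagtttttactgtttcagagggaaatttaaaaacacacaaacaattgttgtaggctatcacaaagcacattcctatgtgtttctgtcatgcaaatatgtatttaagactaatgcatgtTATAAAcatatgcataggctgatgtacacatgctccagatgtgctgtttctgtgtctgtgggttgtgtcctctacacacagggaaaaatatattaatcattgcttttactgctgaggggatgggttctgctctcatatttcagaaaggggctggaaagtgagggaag
The Col1a2 window held the first of these motifs and the CCAAT box but no TATA box, and the Col3a1 window held a TATA box alone. A window was found for 26 of the 40 members, 29 windows in all. The GC box was in 58.6% of member windows and 35.7% of all 32851 windows, the CCAAT box in 37.9% and 37.4%, and the TATA box in 17.2% and 13.6%. The letters AGATAA, read by GATA factors of blood cells, were in 3.45% and 11.2%, the AP-1 motif, searched as TGANTCA with N for any base, in 3.45% and 7.81%, and the CArG box, known from contractile genes, in 0.0% and 1.63%, each on either strand. These are matches of letters and were not tested.

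Of the 4 basement membrane and anchoring collagens, Col4a1, Col4a2 and Col7a1 were called higher in embryonic cells and Col17a1 higher in adult cells. Col4a1 (chr8:11198423-11312826), 1 of the 2 chains of the common type IV collagen, was at 21.7, 20.6 and 24.5 CPM in embryonic and 8.84, 5.81 and 2.24 CPM in adult libraries. The groups did not overlap, and the difference was 3.94-fold (log2 1.98 ± 0.43, adjusted p = 0.0057). Col4a2 (chr8:11312805-11449287), the other chain, was at 9.92, 11.7 and 13.1 against 4.9, 6.76 and 1.55 CPM (2.62-fold, adjusted p = 0.027). That call was lost without embryonic replicate 2 (adjusted p = 0.053), embryonic replicate 3 (0.078) or adult replicate 1 (0.065). The 12 endothelial markers, of another cell type that makes type IV collagen, summed to 49.4, 43.9 and 59.2 CPM in embryonic and 25.1, 22.3 and 13.1 CPM in adult libraries. None was at 0 in embryonic libraries or adult replicates 1 and 2, 1 was at 0 in adult replicate 3, with 4 of the 12 called in the embryonic and 1 in the adult direction. Their part in the Col4a1 and Col4a2 values was not tested.

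Col4a1 and Col4a2 lie head to head, and their RefSeq windows are printed because they overlap. The windows are chr8:11312777-11313076 (minus) and chr8:11312555-11312854 (plus) on GRCm38.p6, overlap by 78 bases and have start sites 21 bases apart. Capitals mark the same 3 motifs as above.
Col4a1: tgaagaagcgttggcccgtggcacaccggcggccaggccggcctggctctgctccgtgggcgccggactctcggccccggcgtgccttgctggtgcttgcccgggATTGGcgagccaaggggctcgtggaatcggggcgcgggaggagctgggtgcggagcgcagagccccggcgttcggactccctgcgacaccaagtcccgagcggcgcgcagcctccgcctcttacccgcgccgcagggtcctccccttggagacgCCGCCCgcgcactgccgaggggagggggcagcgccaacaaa
Col4a2: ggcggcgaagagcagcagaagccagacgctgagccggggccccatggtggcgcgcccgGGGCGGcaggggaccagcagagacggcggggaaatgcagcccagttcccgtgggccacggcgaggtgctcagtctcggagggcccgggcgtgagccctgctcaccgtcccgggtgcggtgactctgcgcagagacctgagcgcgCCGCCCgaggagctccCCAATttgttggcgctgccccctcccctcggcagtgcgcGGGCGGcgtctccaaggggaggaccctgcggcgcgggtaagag
Both windows held GC and CCAAT boxes and neither held a TATA box. The transcripts run on opposite strands and the counting ignored strand, but only 0.3% of the exon bases of Col4a1 and 1.0% of those of Col4a2 are shared with another gene.

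Col7a1, the anchoring fibril chain, was at 3.91, 6.14 and 6.13 CPM in embryonic and 3.68, 1.01 and 2.71 CPM in adult libraries (2.18-fold, adjusted p = 0.045). It lost its call without embryonic replicate 2 (adjusted p = 0.1), embryonic replicate 3 (0.087), adult replicate 2 (0.077) or adult replicate 3 (0.079). Col17a1, the hemidesmosomal collagen of basal keratinocytes, went the other way at 1.61, 2.07 and 2.98 against 4.68, 5.88 and 3.52 CPM (2.11-fold higher in adult cells, adjusted p = 0.015). Its call was lost without embryonic replicate 1 (adjusted p = 0.056), embryonic replicate 2 (0.053) or adult replicate 2 (0.067). The 14 keratinocyte markers summed to 92.9, 168 and 738 CPM in embryonic and 160, 159 and 144 CPM in adult libraries, with 3 called in each direction and 1 at 0 in embryonic replicate 2 alone. Among them Itgb4, the integrin chain that binds beside type XVII collagen in hemidesmosomes, was at 14.9, 14.3 and 12.5 against 78.6, 84 and 96.7 CPM (6.23-fold higher in adult cells, adjusted p = 1.1e-07). The keratins of differentiating keratinocytes went the other way. Krt1 was at 19, 43.6 and 243 against 0.462, 0.323 and 0.394 CPM (log2 8.0, adjusted p = 0.0069, and log2 6.33 without embryonic replicate 3). Krt10 was at 18.4, 42.2 and 218 against 4.68, 1.64 and 0.815 CPM (log2 5.25, adjusted p = 0.021), with a log2 fold change of 3.67 without embryonic replicate 3 and 6.22 without adult replicate 1, and its call was lost without adult replicate 2 (adjusted p = 0.072) or 3 (0.095). Whether keratinocyte RNA has a part in the Col17a1 and Col7a1 values was not tested.

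The beaded and fibril-associated collagens split. Col6a1, Col6a2 and Col6a3, the chains of the beaded type VI collagen, were at 21.4, 21.4 and 27.7 against 20.6, 16.1 and 4.92 CPM, at 19.5, 16.6 and 23 against 12.7, 11.6 and 2.95 CPM, and at 17.8, 15.5 and 18 against 7.28, 4.96 and 1.87 CPM. Every embryonic library was above every adult one for all 3, and only Col6a3 passed the test (3.62-fold, adjusted p = 0.0054). Col6a2 was 2.17-fold higher with an adjusted p of 0.098, which became 1.62-fold and 0.0069 without adult replicate 3, and Col6a1 was 1.69-fold higher with an adjusted p of 0.21. Col14a1, a fibril-associated collagen, was at 2.36, 3.79 and 3.48 against 2.41, 1.13 and 0.316 CPM with overlapping groups (adjusted p = 0.086, and 0.013 with a log2 fold change of 2.13 without adult replicate 1).

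Col12a1 (chr9:79598991-79718831), a long collagen that lies on fibril surfaces in tissues under strain, had the opposite order. It stood at 4.57, 5.69 and 4.82 CPM in embryonic and 29.3, 31.8 and 49.6 CPM in adult libraries, with the highest value in adult replicate 3, the library lowest for most of the set. It was 7.34-fold higher in adult cells (log2 -2.88 ± 0.22, adjusted p = 3.4e-06) and 6.09-fold without adult replicate 3. The summed fibroblast markers stood at 113, 95.4 and 25.7 CPM in the same adult libraries, and their part in the Col12a1 values was not tested.

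Among small proteoglycans, decorin and biglycan were called higher in adult cells, and Lum and Dpt were not called. Dcn (chr10:97479500-97518162), the decorin gene, was at 15.9, 17.3 and 31.4 CPM in embryonic and 148, 127 and 30.1 CPM in adult libraries. Adult replicate 3 fell inside the embryonic range, so the groups overlapped. The fitted difference was 4.72-fold (log2 -2.24 ± 0.67, adjusted p = 0.031). Without adult replicate 3 it was 6.39-fold (adjusted p = 0.0006), and the call was lost when any other single library was left out (adjusted p = 0.1, 0.084 and 0.081 without embryonic replicates 1, 2 and 3, and 0.068 and 0.081 without adult replicates 1 and 2). Bgn, the biglycan gene, was at 2.38, 2.8 and 3.82 against 9.12, 10.8 and 2.84 CPM (2.53-fold higher in adult cells, adjusted p = 0.029), again with adult replicate 3 at the embryonic level. Its call was lost without embryonic replicate 1 (adjusted p = 0.1) or 2 (0.088) and without adult replicate 1 (0.088) or 2 (0.1). Lum (lumican) was at 11.9, 12.5 and 21.2 against 11.9, 13.1 and 3.16 CPM and Dpt (dermatopontin) at 1.7, 1.19 and 2.81 against 1.41, 2.35 and 0.289 CPM, with adjusted p-values of 0.3 and 0.53.

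Ratios to Col1a1 within a library set the composition of these transcripts apart from their amount. Per Col1a1 count, Dcn gave 0.115, 0.11 and 0.217 counts in embryonic and 1.69, 2.22 and 1.94 counts in adult libraries. The groups are far apart, and adult replicate 3 lay between the other adult libraries although its Dcn and Col1a1 levels were both several times lower. For Mmp2 the ratios were 0.0602, 0.0572 and 0.0685 against 0.281, 0.429 and 0.326, and for Fbn2 0.0328, 0.0447 and 0.0274 against 0.00665, 0.00564 and 0.00676. Col3a1, by contrast, kept overlapping ratios of 1.78, 1.8 and 2.35 against 1.43, 2.39 and 1.62. Other genes did not keep a ratio within the adult group: Timp2 gave 1.58, 2.58 and 8.27 counts per Col1a1 count, Pdgfrb 5.04, 8.28 and 34.2, and Col12a1 0.334, 0.554 and 3.19, each with its highest ratio in adult replicate 3. Col1a1 itself was at 87.7, 57.3 and 15.6 CPM in adult libraries, so any gene with an even level there has its highest ratio in replicate 3. The mast cell marker Hdc, for one, gave 198, 270 and 1184 counts per Col1a1 count. Such ratios depend on transcript length and compare libraries, not genes. They were not tested.

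**Figure D4:**
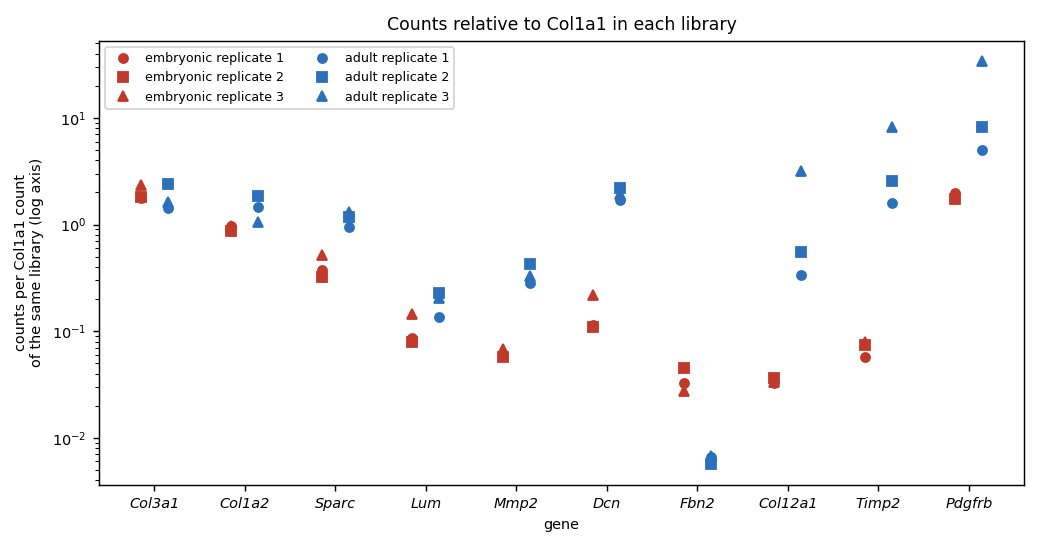
Counts of selected members per Col1a1 count of the same library (log axis), embryonic and adult libraries in separate colours and replicates by symbol. Dcn lies at 0.11 to 0.217 in embryonic and 1.69 to 2.22 in adult libraries, while Timp2, Pdgfrb and Col12a1 spread over the adult group with replicate 3 highest.

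Of the 5 elastic fibre and microfibril genes, Fbn2 and Fbln1 were called higher in embryonic cells and Fbn1, Eln and Fbln2 were not called. Fbn2, the fibrillin that prevails in developing tissue, was at 4.55, 7.05 and 3.96 CPM against 0.583, 0.323 and 0.105 CPM. Its 14.9-fold difference (log2 3.90 ± 0.53, adjusted p = 0.00014) rested on 651 embryonic and 47 adult counts, and the log2 fold change was 4.55 without adult replicate 1. Fbn1, the fibrillin that prevails in adult tissue, was at 3.2, 5.07 and 4.75 against 5.83, 4.52 and 3.08 CPM (adjusted p = 0.9), and 20.1% of its exon bases are shared with Gm9913, where reads were not counted. Fbln1 (fibulin 1), which binds microfibrils and basement membranes, was at 6.31, 5.75 and 7.69 against 2.19, 1.25 and 0.237 CPM (log2 2.41, adjusted p = 0.0085, and log2 3.12 without adult replicate 1). Eln, the elastin gene, and Fbln2 had adjusted p-values of 0.53 and 0.45 with overlapping groups.

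None of the matrix glycoproteins or cross-linking enzymes passed the test. Sparc, a collagen-binding glycoprotein, was at 51.8, 51.3 and 74.4 CPM against 83.3, 67.8 and 20.6 CPM, so that adult replicates 1 and 2 lay on either side of the highest embryonic value and replicate 3 lay below all 3 (log2 0.05 ± 0.52, adjusted p = 0.95). Fn1 (fibronectin) was at 7.62, 21.1 and 11.1 against 18.1, 14.6 and 3.34 CPM and Postn (periostin) at 20.9, 24.2 and 29.4 against 23.1, 27 and 5.29 CPM. Lox, the lysyl oxidase that starts collagen and elastin cross-links, was at 2.88, 5.32 and 7.78 against 3.82, 2.56 and 1.55 CPM. Its log2 fold change of 1.01 had an adjusted p of 0.064, which became 0.018 (log2 1.32) without embryonic replicate 1 and 0.036 (log2 1.36) without adult replicate 1. Loxl1, a related oxidase of elastic fibres, reached at most 1.03 CPM.

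All 3 TIMP genes were called higher in adult cells, and neither metalloproteinase of the set was called. Timp2 (chr11:118301069-118355740), an inhibitor that also takes part in the activation of Mmp2 by Mmp14, was at 7.86, 11.7 and 11.4 CPM in embryonic and 139, 148 and 129 CPM in adult libraries. The adult libraries were even, and all were at least an order of magnitude above the embryonic ones. The difference was 13.4-fold (log2 -3.74 ± 0.16, adjusted p = 8.2e-08), and 13.9-fold without adult replicate 3. In that library the summed fibroblast markers were at 25.7 CPM. Markers of macrophages, which the gate leaves out by F4/80 and CD64, summed to 16.6, 23.7 and 44 CPM in embryonic and 286, 289 and 204 CPM in adult libraries, with 8 of the 9 tested called higher in adult cells and 0 to 2 of the 10 at 0 per library. The most abundant of these macrophage markers differed over the adult libraries. Lyz2 was at 142, 168 and 62.5 CPM, while Cd68 (77.9, 59.9 and 83.5 CPM) and Cd14 (51.4, 47.5 and 47.5 CPM) were more even. The part of either list in the Timp2 values was not tested. The RefSeq window of Timp2 on GRCm38.p6, chr11:118355362-118355661 (minus), is given because this gene had the most marked and most even difference of the inhibitors. Capitals again mark GC and CCAAT boxes, and 68.7% of its bases are G or C.
Timp2: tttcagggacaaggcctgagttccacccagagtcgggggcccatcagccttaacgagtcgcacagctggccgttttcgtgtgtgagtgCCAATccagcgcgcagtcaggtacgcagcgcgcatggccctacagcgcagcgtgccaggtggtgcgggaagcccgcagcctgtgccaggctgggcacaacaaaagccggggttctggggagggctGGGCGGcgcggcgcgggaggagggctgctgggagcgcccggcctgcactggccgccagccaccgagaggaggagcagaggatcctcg

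Timp3, an inhibitor bound to the matrix, was at 2.36, 4.08 and 4.57 CPM against 28, 42 and 10.4 CPM (7.32-fold, adjusted p = 0.0043). Its adult libraries were uneven, with replicate 3 lowest, and 21.3% of its exon bases are shared with Syn3. Timp1 was at 0.172, 0.34 and 0.271 against 2.03, 0.923 and 0.684 CPM on 33 and 167 counts (log2 -2.22, adjusted p = 0.0072, and log2 -1.63 without adult replicate 1). Mmp2, the gelatinase, was at 8.35, 9.03 and 9.9 against 24.7, 24.6 and 5.08 CPM. Adult replicates 1 and 2 were above and replicate 3 below all embryonic libraries, and the test gave an adjusted p of 0.17 with all libraries and 2.4e-05 (2.71-fold higher in adult cells) without adult replicate 3. Mmp14, a membrane-bound collagenase, was at 7.66, 9.17 and 9.67 against 12.9, 10.7 and 4.6 CPM (adjusted p = 0.83).

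Of the mesenchymal receptors and transcription factors, Pdgfrb alone was called. It was also the member with the highest level per length in both groups, at a mean of 156 TPM (transcripts scaled for exon length and library total) in embryonic and 279 TPM in adult libraries. In embryonic cells it was followed by Col3a1 (92.7 TPM), Col1a1 (70.4), Sparc (54.9), Col1a2 (34.6) and Dcn (32.3), and in adult cells by Dcn (157 TPM), Timp2 (113), Sparc (54.6) and Col3a1 (31.4). In adult cells the Dcn value spread widely over libraries, so that its place above Timp2 does not exceed that spread. The lowest means were those of Prrx1 in embryonic (0.25 TPM) and Fbn2 in adult libraries (0.103 TPM).

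Pdgfrb (chr18:61045150-61085061), a receptor for platelet-derived growth factor known as a marker of pericytes and fibroblasts, stood at 276, 275 and 267 CPM in embryonic and 442, 474 and 533 CPM in adult libraries. The groups were tight and did not overlap, at 1.77-fold (log2 -0.82 ± 0.1, adjusted p = 6.3e-05) and 1.68-fold without adult replicate 3. It made up 25.1, 23.0 and 20.4% of all member counts in embryonic and 31.0, 34.1 and 59.8% in adult libraries. The 10 pericyte and smooth muscle markers summed to 5.67, 8.58 and 10.1 CPM against 16, 10.6 and 5.1 CPM. In the adult libraries Cspg4 was at 4.68, 2.98 and 0.763 CPM and Des at 5.33, 0.876 and 0.368 CPM, lowest in replicate 3 like that sum. Notch3 did not follow it, at 0.623, 0.438 and 0.815 CPM. Per library 0 or 1 of the 10 markers was at 0, and 1 of the 8 tested was called in each direction. Their part in the Pdgfrb values was not tested. The related receptor Pdgfra, a marker of fibroblasts, was at 4.29, 4.39 and 4.02 against 3.42, 1.94 and 0.973 CPM, a mean of 1.33 TPM against 0.675 TPM. Its groups did not overlap, and the log2 fold change of 1.0 had an adjusted p of 0.055, or was 1.53 with 0.0094 without adult replicate 1.

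**Figure D5:**
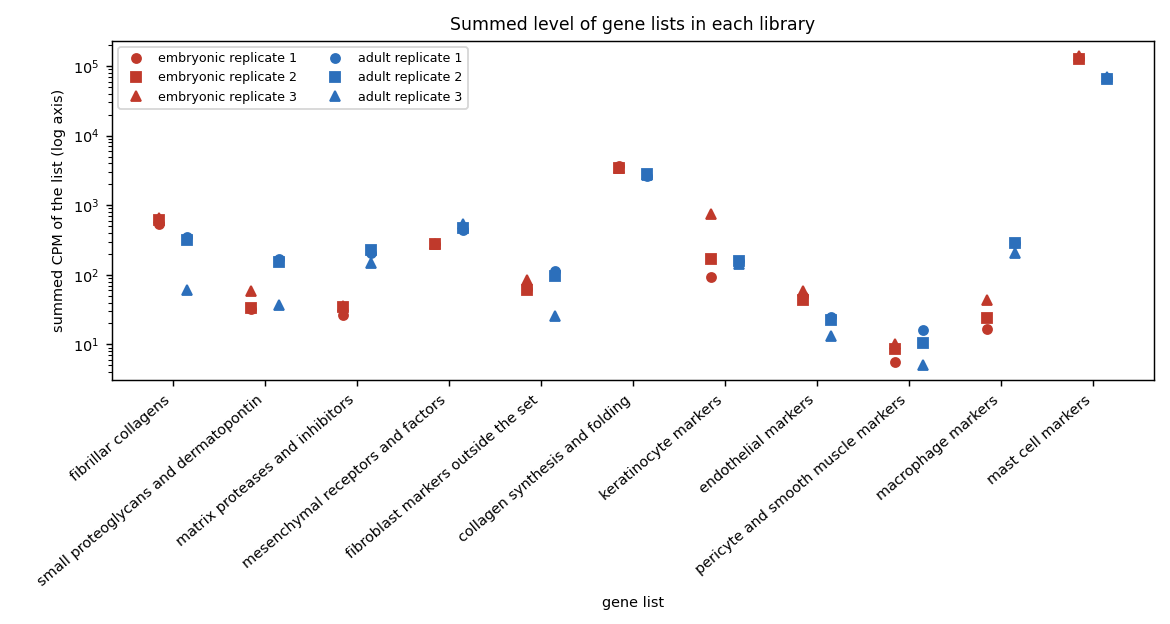
Summed CPM of marker lists and member groups in each library (log axis), embryonic and adult libraries in separate colours and replicates by symbol. Mast cell markers are even within each group, fibrillar collagens and fibroblast markers drop in adult replicate 3 (60.2 and 25.7 CPM), and keratinocyte markers peak in embryonic replicate 3 (738 CPM).

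Twist1, Twist2 and Prrx1, transcription factors of dermal mesenchyme, were near the limit of counting, with 58, 66 and 118 embryonic and 62, 22 and 100 adult counts in all. None was called. Twist2 had 0 counts in adult replicate 3, where 3 counts, the limit that a count of 0 allows, are 0.0738 CPM of the unscaled total, and 46.5% of its exon bases are shared with Gm29100. The contractile genes were low too. Acta2, the smooth muscle actin, was at 1.14, 0.566 and 0.917 against 0.945, 0.83 and 1.24 CPM (adjusted p = 0.72). Tagln, which binds actin, was at 1.72, 2.21 and 1.17 against 3.36, 2.88 and 3.5 CPM (1.92-fold higher in adult cells, adjusted p = 0.03), a call lost without embryonic replicate 1 (adjusted p = 0.068) or 3 (0.1) and without adult replicate 1 (0.073) or 3 (0.065).

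The summed level of genes that process collagen inside the cell was even over the adult libraries, though single genes were not. The 26 genes of collagen synthesis and folding summed to 3711, 3438 and 3438 CPM in embryonic and 2646, 2823 and 2753 CPM in adult libraries, with a median ratio of 1.1 between adult replicates 1 and 2 and replicate 3. That ratio was at least 3 for 5 of the 25 genes tested and reached 8.16, against 4.61% of all tested genes at 3 or more. Of the 25 tested, 13 were called in the embryonic and 6 in the adult direction, and the median log2 change was 0.30. Many of them also serve proteins other than collagen. P4hb, a disulphide isomerase that doubles as a subunit of prolyl 4-hydroxylase, was at 1728, 1545 and 1434 against 1384, 1529 and 1415 CPM (adjusted p = 0.34). Creb3l1, a transcription factor of secretory cells that drives collagen genes in bone, was at 1083, 1004 and 1072 against 494, 472 and 579 CPM (2.04-fold, adjusted p = 2.2e-05). Ppib, a prolyl isomerase of the endoplasmic reticulum, was 3.03-fold higher in embryonic cells (adjusted p = 4.6e-06), and P4ha1, a catalytic subunit of prolyl 4-hydroxylase, 1.68-fold higher in adult cells (adjusted p = 0.0021). Serpinh1, the collagen chaperone, was picked out after its values were seen because it followed the fibrillar collagens within the adult group. It was at 31.8, 38.9 and 46.6 against 7.74, 5.95 and 1.71 CPM (7.56-fold, adjusted p = 0.0029). Between the groups it did not keep to Col1a1, with 0.23, 0.247 and 0.323 counts per Col1a1 count in embryonic and 0.0882, 0.104 and 0.11 in adult libraries.

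Among 30 other collagen genes 20 were tested, with 12 embryonic and 5 adult calls, and Col6a4 and Col6a5 had no counts in any library. Col2a1, among the most abundant of them, was uneven at 30, 111 and 6.13 against 0.442, 0.692 and 0.105 CPM (log2 6.84 ± 1.49, adjusted p = 0.012). It passed the filter only through the embryonic libraries and was not called without adult replicate 3 (adjusted p = 0.07). Col5a3, a chain of type V collagen, was at 65.3, 68.8 and 72 CPM against 23.9, 17.4 and 20.6 CPM (3.33-fold, adjusted p = 2.4e-06), a level that adult replicate 3 shared with the other adult libraries, unlike Col5a1 and Col5a2. Col23a1, a membrane-spanning collagen, was at 31.7, 36.8 and 25.3 against 1.39, 1.45 and 0.789 CPM (25.6-fold, adjusted p = 3.1e-07). Col15a1, a collagen of basement membrane zones, was higher in adult cells at 6.03, 9.26 and 6.94 against 23.5, 18.4 and 40.1 CPM (3.69-fold, adjusted p = 0.00065), with its highest value in adult replicate 3, as for Col12a1.

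Of 22 other proteases and inhibitors 18 were tested, with 5 embryonic and 8 adult calls. Adamts1, a secreted protease that cleaves proteoglycans, was at 20.7, 29.6 and 35.8 against 689, 675 and 701 CPM (24-fold, adjusted p = 1.4e-07), even over the adult libraries like Timp2. Mmp3, stromelysin, had 2 embryonic and 308 adult counts, a ratio of 144 per total count (95% exact binomial interval 39.5 to 1194, counting error only). This gene passed the expression filter only through the adult libraries. Of 15 laminins, nidogens and related genes 14 were tested, with 4 embryonic and 2 adult calls.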

How the data were processed

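Mast cells of embryonic and adult mouse skin gave 3 libraries each, from 10 ng of total RNA amplified by PCR (10 cycles for cDNA, 12 for the library) with a kit that does not mark strand, per the labels' protocols. The authors deposited raw counts and the exon length of each gene. Exon reads were tallied by featureCounts 1.5.0-p1, per the file headers, with GENCODE M9 without strand (setting 0), leaving out reads marked as duplicates, and by its defaults reads in several genes. Per the submitters' processing notes STAR and GRCm38 (mm10) were used; whether duplicates had been marked is not given in the sources used here. Symbols came from GENCODE M21 by identifier (47224 of 47643 matched), coordinates from the deposited table, and promoter windows from RefSeq by symbol. No column belonged to other samples (0).

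The test was edgeR's quasi-likelihood test (edgeR 4.0.16, R 4.3.3, TMM scaling, filterByExpr at its default of 10 counts, robust fit, Benjamini-Hochberg adjustment over 15111 genes, threshold 0.05). The standard error is the log2 fold change over the square root of F. TPM used the deposited exon length. The coefficient of variation between libraries was 22.5%. Libraries of a group differed beyond counting noise (chi-square per degree of freedom 37.8 to 99.2), so each counted as 1 replicate. Without molecular identifiers, intervals and the floor of 3 counts cover counting error only. The test was tried on simulated data first.

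The members and all lists were chosen with earlier results of these data known. The rule named all members, in each pathway list the 3 smallest adjusted p-values in each direction and the 2 most abundant genes, and in each marker list the 3 most abundant; not all of these are printed. Alternatives were RLE and upper quartile scaling, filters of at least 1 count or 1 CPM in 3 libraries, DESeq2 1.42.0, limma-voom (limma 3.58.1), the replicate number as a block, edgeR without its robust option, each library left out, both replicates 3 left out, and stricter thresholds. Same-numbered libraries did not deviate together (r = -0.122, -0.079 and -0.133), so numbers were not taken as pairs.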

Additional observations from a re-analysis of the deposited data

How the results depend on the processing

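Counts of members called higher in embryonic and adult cells were 8 and 9. DESeq2 gave 13 and 9, limma-voom 13 and 8, and an adjusted p under 0.01 gave 4 and 5. Over all 15111 tested genes the same settings called 4660 and 4766, 4780 and 4902, and 3778 and 3802. With DESeq2 and limma-voom the embryonic share of the set was therefore not below that of all genes, unlike in the quasi-likelihood test. Col1a1, Col3a1, Col14a1 and Pdgfra were called by both DESeq2 (adjusted p = 0.043, 0.032, 0.028 and 0.024) and limma-voom (0.0095, 0.0093, 0.033 and 0.026) and not by the quasi-likelihood test, so calls of these unevenly spread genes depend on the tool. Leaving out libraries gave 6 to 11 and 5 to 10 members, with the lowest adult count, 5, without embryonic replicate 1. With the replicate block the counts were 9 and 6, for a number that does not pair the libraries, and 4379 and 4469 over all genes. Over all genes a 2-fold minimum left 2601 and 3143 calls, and leaving out libraries gave 4333 to 4601 and 4441 to 4645. In the collagen synthesis list a 2-fold minimum left 8 and 3 calls, and leaving out libraries gave 9 to 13 and 4 to 6.

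Fitted signs turned only for genes that were not called with all libraries. Over the fits that left out libraries the log2 fold change ran from -0.04 to 0.99 for Lum, -0.37 to 1.14 for Dpt, -0.33 to 0.18 for Fbn1, -0.44 to 0.77 for Eln, -0.08 to 0.99 for Fbln2, -0.32 to 0.55 for Fn1, -0.55 to 0.41 for Sparc, -0.15 to 0.8 for Postn, -0.49 to 0.2 for Mmp14, -1.15 to 0.31 for Twist1, -0.18 to 0.64 for Prrx1 and -0.4 to 0.09 for Acta2. For genes of other lists it ran from -0.09 to 0.09 for Lamc1, -0.25 to 0.1 for Pcolce, -1.31 to 0.21 for Plvap, -0.88 to 0.14 for Cspg4 and -2.18 to 0.23 for Des. Other settings reversed Mmp14 (0.02 with the replicate block), Twist1 (0.14 with limma-voom), Lamc1 (0.04 with genes of at least 1 count) and Pcolce (0.03 with genes of at least 1 count, 0.0 with limma-voom and 0.02 with the replicate block). Where both replicates 3 were left out, Sparc passed the test (log2 -0.55, adjusted p = 0.0036). Genes of at least 1 count ended the calls of Col5a1 (adjusted p = 0.056), Dcn (0.1) and Tagln (0.054). The cause of these changes was not tested. Members under about 1 CPM (Twist1, Twist2, Prrx1, Loxl1, Acta2 and Timp1) are limited by depth.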
